A study of Mus musculus with 14 samples.

Results

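Broad domains of RNF2 binding were followed in mouse embryonic stem cells through peak lists from chromatin immunoprecipitation sequencing (ChIP-seq). The domains came from the RNF2 list of wild-type (WT) library 2. On chromosomes 1 to 19, X and Y, its peaks were merged where 1 kb or less lay between them, and merged regions that spanned 5 kb or more were kept. This gave 749 domains among 17726 merged regions (4.23%), and 16977 regions were shorter. The domains were thus chosen by the width of RNF2 peaks in WT library 2, and their span and coverage in that library are given as descriptions only. The other lists took no part in the choice.

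The domains were followed in RNF2 ChIP from 2 libraries of BAP1 knockout (BAP1KO) cells and 2 libraries of WT cells. BAP1 ChIP came from 1 library of BAP1 C91A cells, whose BAP1 carries alanine in place of its catalytic cysteine, opposite a null allele (Bap1C91A/- in the labels' protocols). The controls were 1 library of RNF2 ChIP in RNF2 knockout cells and 1 of BAP1 ChIP in BAP1 knockout cells. All cells, WT cells included, had a C57BL/6 background, came from a stage labelled E3.5 to E4.5, and were kept for 4 days in 10 µM emricasan (which inhibits caspases) and 100 nM 4-hydroxytamoxifen. The C91A cells were also cross-linked in 2 mM disuccinimidyl glutarate for 30 min. The labels do not say how the alleles were deleted, or whether libraries of a genotype came from separate cultures or clones, so differences between libraries may be technical. Peak lists hold no expression, and the cell type could not be checked against marker genes.

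RNF2, also called RING1B, is the catalytic subunit of Polycomb repressive complex 1 (PRC1), which attaches ubiquitin to histone H2A. BAP1 is the catalytic subunit of the Polycomb repressive deubiquitinase complex (PR-DUB), which removes that ubiquitin. In embryonic stem cells Polycomb complexes are known to sit on CpG-rich promoters of silent developmental regulators, with the longest stretches over the Hox clusters.

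Sequences before 5 start sites in the domains are shown for their differing CpG content and peak coverage. Each line gives the 250 bases before a listed start site, 5′ to 3′ on the gene's own strand, from RefSeq's GRCm38.p6 table, with every CpG dinucleotide in capitals. Cbx8 (a PRC1 subunit that reads methylated histone H3) is on the minus strand at chr11:119040914-119041163, and its domain held one of the greatest lengths of BAP1 peak. Hand2 (a heart and limb transcription factor) is on the plus strand at chr8:57320733-57320982, in the domain with the largest loss of coverage in BAP1KO library 1. Barhl1 (a neural homeobox factor) is on the minus strand at chr2:28912496-28912745, in a domain without a peak in WT library 1. Cdkn2b (a cell cycle inhibitor) is on the minus strand at chr4:89311033-89311282, at the edge of the Cdkn2a and Cdkn2b domain. Nr2f2 (an orphan nuclear receptor) is on the minus strand at chr7:70366747-70366996, in the longest domain after the Hox clusters, and is shown as a window poor in CpG.

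Cbx8: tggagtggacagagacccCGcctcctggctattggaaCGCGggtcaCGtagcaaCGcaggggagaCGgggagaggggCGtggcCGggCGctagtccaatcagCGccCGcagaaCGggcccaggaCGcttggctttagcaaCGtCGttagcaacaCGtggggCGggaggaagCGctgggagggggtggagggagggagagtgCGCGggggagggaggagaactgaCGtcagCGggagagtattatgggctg

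Hand2: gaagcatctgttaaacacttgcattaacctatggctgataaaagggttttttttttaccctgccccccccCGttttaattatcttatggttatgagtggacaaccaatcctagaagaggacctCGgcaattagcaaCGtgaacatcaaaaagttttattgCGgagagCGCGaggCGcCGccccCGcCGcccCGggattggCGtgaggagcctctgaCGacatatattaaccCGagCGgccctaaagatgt

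Barhl1: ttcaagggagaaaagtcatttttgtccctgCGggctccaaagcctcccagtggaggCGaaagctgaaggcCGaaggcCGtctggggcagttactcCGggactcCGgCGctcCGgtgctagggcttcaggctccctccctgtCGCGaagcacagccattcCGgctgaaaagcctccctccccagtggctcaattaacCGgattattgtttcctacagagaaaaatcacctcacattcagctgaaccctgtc

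Cdkn2b: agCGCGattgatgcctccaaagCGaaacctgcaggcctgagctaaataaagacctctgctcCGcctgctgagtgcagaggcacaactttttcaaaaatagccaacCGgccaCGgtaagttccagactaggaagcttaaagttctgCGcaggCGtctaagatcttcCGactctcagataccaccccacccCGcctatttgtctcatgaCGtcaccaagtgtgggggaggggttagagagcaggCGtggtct

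Nr2f2: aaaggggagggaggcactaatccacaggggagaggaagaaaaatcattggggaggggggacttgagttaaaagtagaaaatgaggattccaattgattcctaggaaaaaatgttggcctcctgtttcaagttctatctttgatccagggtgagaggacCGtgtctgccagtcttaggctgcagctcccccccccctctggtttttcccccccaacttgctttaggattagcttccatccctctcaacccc

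These windows held 22 CpGs at Cbx8, 15 at Hand2, 12 at Barhl1, 12 at Cdkn2b and 1 at Nr2f2. Peaks of BAP1KO libraries 1 and 2 and of both WT libraries covered all 250 bases at Cbx8, Hand2 and Nr2f2, and a BAP1 C91A peak reached 96 bases of the Hand2 window. At Barhl1 both BAP1KO libraries and WT library 2 covered all 250 bases and WT library 1 covered 0. Another listed Barhl1 start had 7 CpGs in its window, and BAP1KO library 1 covered 121 of the 250 bases, BAP1KO library 2 250, WT library 1 0 and WT library 2 250. At Cdkn2b BAP1KO library 1 covered 21 bases, BAP1KO library 2 250, WT library 1 0 and WT library 2 250. WT library 1 thus had no peak over the Barhl1 and Cdkn2b windows, while WT library 2 covered them whole.

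Several domains also held microRNA genes, and the mature 5p strands of 3 families are shown because every locus of each family in the table lay in a domain. They are from the same RefSeq build, with the seed (bases 2 to 8, which pair with target messages) in capitals.

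miR-9-5p: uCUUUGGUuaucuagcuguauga

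miR-10a-5p: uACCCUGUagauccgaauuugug

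miR-10b-5p: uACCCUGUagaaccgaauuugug

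miR-196a-5p: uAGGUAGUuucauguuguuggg

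miR-196b-5p: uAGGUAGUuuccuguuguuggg

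miR-10a and miR-10b share a seed, and so do miR-196a and miR-196b. miR-9-5p is encoded by 3 loci, at chr3:88215613-88215635, chr7:79505279-79505301 and chr13:83738821-83738843, all on the plus strand.

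The 749 domains summed to 8.35 Mb and held 32.1% of all bases under peaks in WT library 2. Their median span was 7551 bp, the upper quartile 12564 bp and the longest 134442 bp. Of the domains, 263 spanned 10 kb or more, 83 spanned 20 kb or more and 5 spanned 50 kb or more. In WT library 2, 95 domains were a single peak, and the median domain was built of 3 peaks. At the threshold, the domains just inside were at Repin1 (5004 bp), Nfix (5005 bp) and Nab2 (5008 bp). The regions just outside were at Sphk1 (4999 bp), Pax8 (4997 bp) and Jph4 (4997 bp). Of the domains, 153 had another domain within 50 kb, and the median distance to the nearest was 523 kb.

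The 4 Hox clusters, which encode the homeobox factors of the body axis, were the longest domains and lay under RNF2 peaks in every WT and BAP1KO library. The Hoxc domain spanned 134 kb (Hoxc13 to Hoxc4), the Hoxa domain 132 kb, the Hoxb domain 127 kb (Hoxb9 to Hoxb1) and the Evx2 to Hoxd3 domain 69.1 kb. In the Hoxc domain RNF2 peaks covered 122 and 133 kb in BAP1KO libraries 1 and 2, against 119 and 134 kb in WT libraries 1 and 2. In the Hoxa domain they covered 117 and 128 kb in the BAP1KO libraries, against 118 and 130 kb in the WT libraries. Within each library number, the genotypes thus lay closer to each other than the 2 libraries of one genotype did. In the Evx2 to Hoxd3 domain the values were 61.0 and 68.2 kb in BAP1KO cells and 64.1 and 69.0 kb in WT cells.

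The next domains in length held 1 or 2 coding genes each. Nr2f2 and Nr2f1, orphan nuclear receptors, had domains of 50.7 and 41.9 kb, and Tfap2a and Tfap2b, factors of the neural crest and surface ectoderm, had domains of 49.4 and 38.9 kb. The neural zinc finger genes Zic1 and Zic4 shared a domain of 42.4 kb, and the forebrain and branchial arch factors Dlx5 and Dlx6 shared one of 37.4 kb. Hand2 had 41.4 kb, Hoxb13 39.0 kb, Hoxd3 and Hoxd4 together 38.0 kb, and the neighbours Skida1 and Mllt10 37.1 kb. The Cdkn2a and Cdkn2b locus, which encodes cell cycle inhibitors, had a domain of 41.7 kb. At Nr2f1 peaks covered 21.1 and 31.8 kb in the BAP1KO libraries, against 20.6 and 38.6 kb in the WT libraries.

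Of 21775 protein-coding genes, 784 (3.60%) overlapped a domain. A single coding gene lay in 579 domains, 2 or more in 94 and none in 76. Among lists of developmental factors the shares were far above that 3.60%. All 39 Hox genes lay in a domain, as did 64 of 69 LIM, paired and other homeobox genes and 28 of 32 genes of the Nkx, Dlx, Irx and sine oculis (such as Six3) families. Lower down came 11 of 17 T-box genes (such as Tbx3, Tbx15 and the mesoderm factor T), 9 of 17 Gata, Zic and Gli genes, 7 of 12 neural POU genes, 21 of 44 forkhead genes, 9 of 19 Sox genes and 22 of 49 basic helix-loop-helix (bHLH) genes. Of the lineage lists, 9 of 14 trophoblast genes (among them Cdx2, Eomes and Tfap2a) and 9 of 14 primitive endoderm genes (among them Gata4, Gata6 and Sox17) lay in a domain.

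Signalling genes were less uniform. Of 19 Wnt ligands 13 lay in a domain, the longest being those of Wnt10a (20.5 kb), Wnt5a (18.0 kb), Wnt1 (10.9 kb) and Wnt10b (10.3 kb). Of 22 Fgf ligands 2 did, Fgf8 (10.4 kb) and Fgf9 (9.48 kb). Members in a domain numbered 9 of 35 for BMP and TGF-beta ligands and antagonists, 6 of 16 for Hedgehog and Notch genes, and 4 of 15 for retinoic acid genes. The last included Cyp26a1 and Cyp26c1, enzymes that break down retinoic acid and share a domain of 18.4 kb. Of the 22 Fgf ligands, 20 overlapped a merged region of any length, as did 52.4% of all coding genes.

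Polycomb genes were also counted. Of 24 genes on the PRC1 list 5 lay in a domain, among them Bmi1 (34.9 kb), Cbx8 (29.3 kb), Bcor (23.7 kb, with another of 22.3 kb) and Bcorl1 (7.44 kb). None of 12 PRC2 genes and none of 12 PR-DUB genes did, and 8 PRC2 genes and 7 PR-DUB genes overlapped a shorter region, against 52.4% of all coding genes that overlapped a merged region of any length. Of 7 cyclin-dependent kinase inhibitors 4 did, Cdkn2a, Cdkn2b, Cdkn2c (14.7 kb) and Cdkn1c (9.97 kb). Of 20 pluripotency genes 1 did, Tbx3. None of 20 germ cell, 12 fibroblast, 19 housekeeping and 75 ribosomal protein genes lay in a domain. The fibroblast list was included for feeder cells. Across all coding genes the share in a domain was 3.60%, and none among 12 to 20 genes is near that share. The empty germ cell, fibroblast, housekeeping, PRC2 and PR-DUB lists are therefore no result about these genes or about feeder cells. The bars for each list are drawn against the share of all coding genes.

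**Figure D1:**
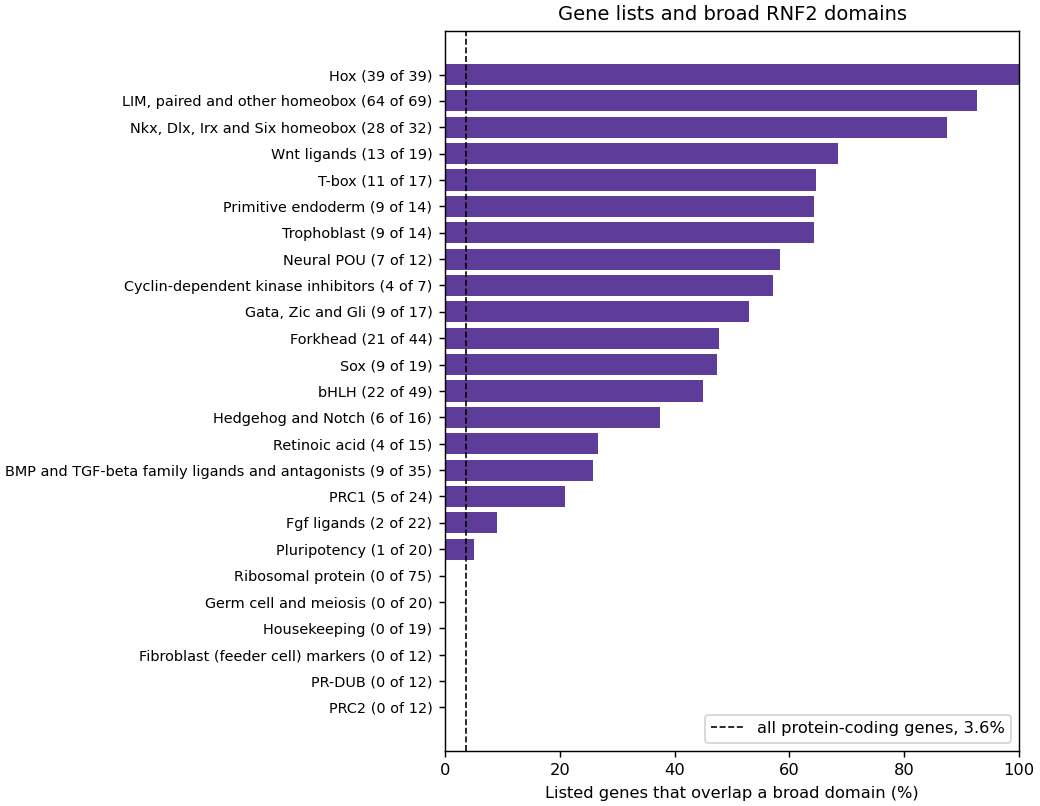
Share of each gene list that overlaps a broad RNF2 domain, in percent, with the number of genes in a domain and the number matched in parentheses; the dashed line is the 3.60% of all protein-coding genes. Homeobox lists stand at the top, and ribosomal protein, housekeeping, germ cell, fibroblast, PR-DUB and PRC2 genes are at 0.

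Of 1005 microRNA hairpins 31 (3.08%) lay in a domain, in 24 domains in all, a share near the 3.60% of coding genes, but 3 families were there whole. All 3 Mir9 loci, both Mir10 loci and all 3 Mir196a and Mir196b loci lay in domains, and these families were picked after their values were seen. miR-9 acts in neural progenitors, and the miR-10 and miR-196 genes lie inside Hox clusters. Counts were 0 of 5 hairpins for the Mir302 and Mir367 cluster and 0 of 7 for the Mir290 to Mir295 cluster. They were 0 of 5 for the Mir200 family and 0 of 3 for Mir34. With 3.08% of all hairpins in a domain, 0 in groups this small is near that share and is no result about these microRNAs. The 3 Mir9 loci were also the 3 longest domains without a coding gene. RNF2 peaks at Mir9-2 (29.6 kb) covered 16.3 and 27.9 kb in the BAP1KO libraries, against 14.0 and 27.9 kb in the WT libraries. At Mir9-3 (25.1 kb) they covered 18.4 and 23.0 kb in BAP1KO cells and 11.8 and 23.3 kb in WT cells. At Mir9-1 (21.6 kb) they covered 7.64 and 15.9 kb in BAP1KO cells and 5.19 and 18.0 kb in WT cells.

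A larger share of domains than of shorter regions held a listed start site, but the start sites in domains were not richer in CpG. Of 720 domains outside chromosome 18, for which no start sites were used here, 505 (70.1%) held one, against 38.6% of regions under 5 kb. Domains are longer by the rule and offer more room for a start site, and start sites per length were not compared. Windows of 250 bases before coding start sites in domains had a median of 16 CpGs (601 windows), against 18 in shorter regions (6991 windows) and 4 outside every merged region (13670 windows). CpG-rich windows, with an observed over expected CpG of 0.6 or more and a GC content of 50% or more, made up 62.4% in domains, 70.5% in shorter regions and 41.5% of all 21262 windows. The share was 50% in domains of 20 kb or more, against 67.6% in those of 5 to 7.5 kb. In 339 domains with a single coding start window, the domain reached a median of 5065 bp downstream of the start and 3380 bp upstream, and was longer downstream in 240 of them (70.8%).

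The RNF2 knockout control listed 0 peaks at 119 M tags, so none of the 749 domains held one (0% of all merged regions did). With an empty list this count was fixed in advance, and it is no measure of the domains. The BAP1 knockout control held a peak in 1 domain (0.134%, against 0.0338% of all merged regions). It had 32.5 M tags against 415 M in the C91A library, and the labels give the extra cross-linking for C91A cells and not for it, so its few peaks are a weak control. That domain lies over the ribosomal RNA copy Rn18s-rs5 on chromosome 17 and had weak RNF2 peaks, with a fold enrichment of 1.38 in BAP1KO library 1 and 1.40 in WT library 1. Depth and calling differed between library numbers. BAP1KO library 1 had 54.1 M tags and 7946 peaks and WT library 1 58.4 M and 4038. BAP1KO library 2 had 139 M and 39872 peaks and WT library 2 149 M and 28770. The genotypes were therefore compared within a library number, and each such comparison sets 1 library against 1 other.

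Nearly every domain held an RNF2 peak in both BAP1KO libraries and in the other WT library. In BAP1KO library 1 739 domains did (98.7%, Wilson 95% interval 97.6 to 99.3, against 37.9% of all merged regions). In BAP1KO library 2 all 749 did (100%, against 91.2%), and in WT library 1 702 did (93.7%, interval 91.8 to 95.2, against 17.2%). These intervals cover counting error only. Peaks covered 69.0% of the summed domain length in BAP1KO library 1, 91.3% in BAP1KO library 2, 55.4% in WT library 1 and 94.3% in WT library 2. In regions under 5 kb the same shares were 39.9, 89.8, 12.5 and 90.5%. Averaged over both libraries of a genotype, BAP1KO minus WT was 5.33 percentage points, a description with no test, since WT library 2 is high by the choice of the domains. It turned to −14.1 points without WT library 1 and to −5.84 without BAP1KO library 2, and was 16.5 points without BAP1KO library 1 and 24.8 points without WT library 2.

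Between the libraries numbered 1, RNF2 peaks covered more of most domains in BAP1KO cells. Coverage was greater in BAP1KO library 1 than in WT library 1 in 677 of 749 domains (90.4%, interval 88.1 to 92.3, against 37% of all merged regions), less in 65 (against 1.42%) and equal in 7. Over all 17726 merged regions the counts were 6550 more, 251 less and 10925 equal, so the 37% is low through ties. Among regions that differed, greater coverage in BAP1KO library 1 was no more frequent in domains than in merged regions at large. The per-domain median coverage was 68.5% in BAP1KO library 1 and 48.5% in WT library 1, and peaks covered at least 50% of 617 domains in BAP1KO library 1 and of 355 in WT library 1. The longest stretch of merged peaks in a domain had a median of 4938 bp in BAP1KO library 1 and 3345 bp in WT library 1. The list of BAP1KO library 1 holds more peaks at a similar depth, its peaks are wider (median 1082 bp against 876.5 bp in WT library 1), and its estimated fragment was longer (323 bp against 297 bp). The part of these settings in the difference was not tested. With both lists held to their 4038 peaks of lowest q-value, 83.2% of domains were covered more in BAP1KO library 1.

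As a percent of domain length, the difference became smaller with the span of the domain. In the 371 domains of 5 to 7.5 kb, peaks covered 60.2% of the length in BAP1KO library 1 and 35.1% in WT library 1, and 94.6% of these domains were covered more in BAP1KO cells. In the 115 domains of 7.5 to 10 kb the values were 62.7% in BAP1KO library 1 and 43.6% in WT library 1. In the 180 domains of 10 to 20 kb they were 70.1% in BAP1KO library 1 and 59.3% in WT library 1. In the 83 domains of 20 kb or more they were 77.9% in BAP1KO library 1 and 73.4% in WT library 1, a difference of 4.54 points, and 73.5% of these domains were covered more in BAP1KO cells. Coverage has a ceiling of 100%, and WT library 1 already stood higher in the longer domains. In bases the difference did not fall steadily with span. Its median per domain was 1185, 1492, 909.5 and 1033 bp from the shortest class to the longest, so the same bases make a smaller percent of a longer domain. In regions under 5 kb the difference was 27.4 points, against 13.6 points over all domains.

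**Figure D2:**
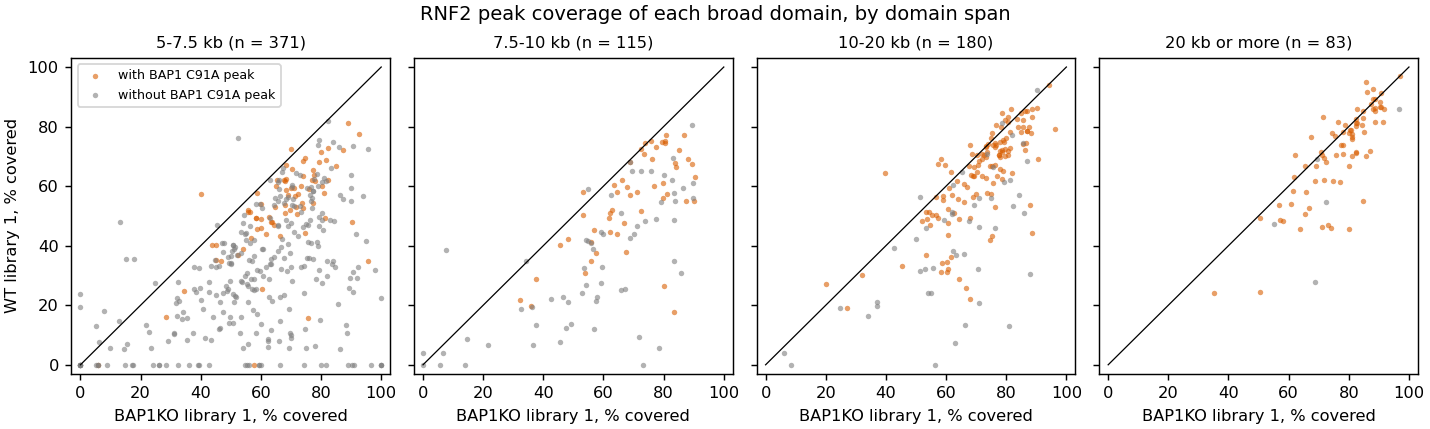
Percent of each broad domain under RNF2 peaks in BAP1KO library 1 (x axis) and WT library 1 (y axis), in 4 classes of domain span; each point is a domain, orange where the BAP1 C91A list also has a peak, and the line marks equal coverage. Points lie right of the line in 94.6% of the shortest domains and in 73.5% of the longest, where they approach the line.

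The libraries numbered 2 gave another picture, with the limit that WT library 2 chose the domains. Peaks covered more in BAP1KO library 2 than in WT library 2 in 246 domains (32.8%, against 26% of all merged regions). They covered less in 475 (63.4%, against 39.7%) and as much in 28 (against 6070 of 17726 merged regions). The covered share of domain length differed by −2.97 points. The merged region in BAP1KO library 2 was longer than the domain in 349 cases (46.6%, against 75.6% of all merged regions) and shorter in 399. A single merged region of BAP1KO library 2 overlapped each of 691 domains, and 58 domains were overlapped by 2 or more. In 688 domains the longest such region was still 5 kb or more, and its median was 8059 bp against 7551 bp for the domains themselves. A library chosen for its width in a region is wide there by choice, so the direction between these 2 libraries is no measure of genotype.

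**Figure D3:**
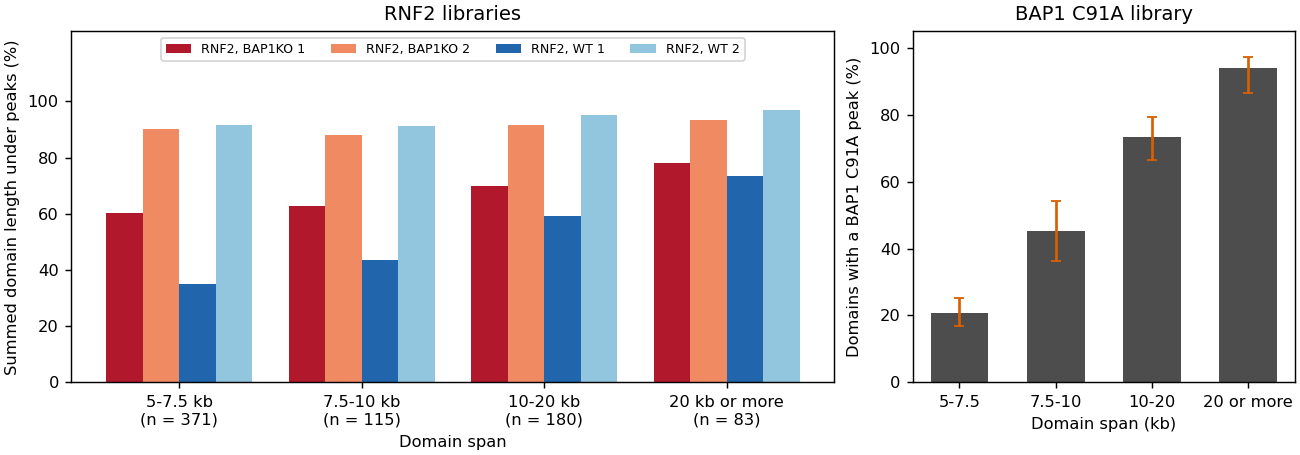
Left, percent of summed domain length under RNF2 peaks in BAP1KO libraries 1 and 2 and WT libraries 1 and 2, by domain span; right, percent of domains with a BAP1 C91A peak, with Wilson 95% intervals for counting error. The gap between BAP1KO library 1 and WT library 1 narrows from the shortest class to the longest, the libraries numbered 2 stand at 88.2% or above in every class, and the BAP1 share climbs with span.

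The 5 domains with the largest gain in covered length in BAP1KO library 1 are described by their values, which chose them. At Wnt10a, a secreted Wnt ligand, peaks covered 14.1 and 19.7 kb of 20.5 kb in the BAP1KO libraries, against 5.70 and 19.1 kb in the WT libraries. At Nxph4, which encodes a neurexophilin, they covered 9.58 and 11.9 kb of 11.9 kb in BAP1KO cells and 1.52 and 11.3 kb in WT cells. At Onecut1, a liver and pancreas homeobox factor, they covered 18.0 and 22.4 kb in BAP1KO cells and 10.2 and 22.3 kb in WT cells. The gamma protocadherin cluster, a row of neural adhesion genes, differed by 8124 bp between BAP1KO library 1 and WT library 1, and the domain over Plekhh3, Ccr10 and Cntnap1 by 7700 bp.

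The 5 domains with the largest loss of covered length in BAP1KO library 1 are likewise described by the values that chose them. At Hand2 peaks covered 29.5 and 40.2 kb of 41.4 kb in the BAP1KO libraries, against 34.4 and 41.3 kb in the WT libraries, a difference of −4953 bp between the libraries numbered 1. At Pax3, a neural crest and muscle factor, they covered 23.9 and 33.4 kb in BAP1KO cells and 27.1 and 34.8 kb in WT cells. At Sall3, a zinc finger factor, they covered 5.84 and 13.1 kb in BAP1KO cells and 9.45 and 14.4 kb in WT cells. Skida1 with Mllt10 (−3529 bp) and Evx2 to Hoxd3 (−3110 bp) completed the 5 largest.

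Among the gene lists, the median difference in coverage between BAP1KO library 1 and WT library 1 was 14.7 points over all 749 domains. It was 23.5 points in the 14 domains of Wnt ligands, 22.8 points in the 10 of trophoblast genes, 15.8 points in the 22 of bHLH genes and 14.5 points in the 14 of T-box genes. It was 7.76 points in the 67 of LIM, paired and other homeobox genes, 4.82 points in the 20 of forkhead genes and 2.09 points in the 7 Hox domains. The 8 Gata, Zic and Gli domains had a median of −2.85 points, and 3 of them were covered more in BAP1KO library 1. Gata2, a blood and trophoblast factor, was 87.8 and 97.2% covered in BAP1KO cells and 53.6 and 99.1% in WT cells. Gata4, an endoderm and heart factor, was 74.4 and 92.2% covered in BAP1KO cells and 77.7 and 99.2% in WT cells. The lists differ in domain span, and that part was not separated.

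Peaks were absent from 47 domains in WT library 1, and 40 of these had a peak in BAP1KO library 1. Conversely, 3 domains had a peak in WT library 1 and none in BAP1KO library 1, and 7 had none in either. The 47 were short, with a median span of 5849 bp, and their strongest peak in WT library 2 had a median fold enrichment of 9.49 over local background, against 18.1 in the domains with a peak in WT library 1 (fold enrichment is the authors' value). Those with the strongest peaks in WT library 2 were at Slc43a1, Barhl1, Esam, Phox2a with Inppl1, and Asic4. At Barhl1 peaks covered 6.47 and 11.4 kb of 11.5 kb in the BAP1KO libraries, against 0 and 11.1 kb in the WT libraries. At Phox2a, a factor of noradrenergic neurons, they covered 4.68 and 5.83 kb in BAP1KO cells and 0 and 5.12 kb in WT cells. Of the 47 domains, 2 held a BAP1 C91A peak.

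BAP1 C91A peaks were concentrated in the domains. Of 2395 such peaks, 1747 (72.9%) lay in a domain and 2131 (89.0%) in any merged RNF2 region, while domains made up 31.2% of the length of those regions. A BAP1 peak was present in 339 of 749 domains (45.3%, interval 41.7 to 48.8, against 3.68% of all merged regions), and BAP1 peaks covered 5.25% of domain length, against 0.288% in shorter regions. The share with a peak was 20.8% in domains of 5 to 7.5 kb, 45.2% at 7.5 to 10 kb, 73.3% at 10 to 20 kb and 94.0% at 20 kb or more, although a longer domain also offers more room for a peak. The median span was 12282 bp with a BAP1 peak and 6377 bp without. The share with a peak depends on the threshold: it was 23.6% with BAP1 and RNF2 peaks of −log10 q of 5 or more and 2.07% at 10 or more, and 12.6% where BAP1 peaks had to cover 10% of the domain. Where present, BAP1 had a median of 4 peaks and 760 bp in a domain. The library had 415 M tags, used another antibody and another cross-linking, and has no replicate.

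Within the 339 domains, BAP1 peaks lay almost wholly under RNF2 peaks. Of 438073 bp under BAP1 peaks, 437975 bp were under RNF2 peaks in BAP1KO library 1 and all were in BAP1KO library 2 and WT library 2. In those libraries numbered 2, RNF2 peaks covered 92.3% (BAP1KO) and 95.9% (WT) of the length of these domains. The peaks of WT library 2 also made the domains, so full overlap there was close to given. In WT library 1 436683 bp (99.7%) were, while RNF2 peaks covered 67.1% of the length of these domains in that library and 74.3% in BAP1KO library 1. Of 1747 BAP1 summits, 1737 (99.4%) lay under a peak of WT library 1. The strongest BAP1 summit of a domain was a median of 1397 bp from the nearest listed start site, and 41.6% were within 1 kb, while 17.5% of evenly spaced points across the same domains were. The strongest RNF2 summits were within 1 kb of a start site in 38.3 and 37.6% of domains in the BAP1KO libraries and in 35.3 and 37.5% in the WT libraries, against 19.9% of evenly spaced points, all over the whole set of domains. Over every RNF2 summit the shares were 29.7 and 17.9% in the BAP1KO libraries and 27.5 and 15.7% in the WT libraries. Most of the strongest BAP1 and RNF2 summits lay in the middle part of a domain, while the evenly spaced points reach its edges. In domains with a single coding start, BAP1 peaks covered 7.20% of the length downstream of the start and 3.45% upstream, and RNF2 peaks differed less between the sides, with 70.6% downstream and 69.5% upstream in BAP1KO library 1 and 57.8% and 55.1% in WT library 1.

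The greatest lengths of BAP1 peak were in the Hoxa (14.7 kb), Evx2 to Hoxd3 (12.3 kb), Cbx8 (10.7 kb), Hoxb (10.5 kb) and Hoxc (9.88 kb) domains. BAP1 peaks thus covered 36.5% of the Cbx8 domain. The highest such share, 40.6%, was at the neuronal pentraxin gene Nptx1 (7.58 kb), named after its value was seen. Shorter lengths of BAP1 peak included those at the homeobox genes Otx1 (5.76 kb), Six3 (5.52 kb) and Pitx1 (5.45 kb), the last in a domain shared with Catsper3, which encodes a sperm channel subunit. At Cbx8 RNF2 peaks covered 25.6 and 28.0 kb in BAP1KO cells and 25.7 and 29.0 kb in WT cells. The longest domains without a BAP1 peak were at Mir9-2, Bcor (2 domains), Wnt10a and Tbx3.

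**Figure D4:**
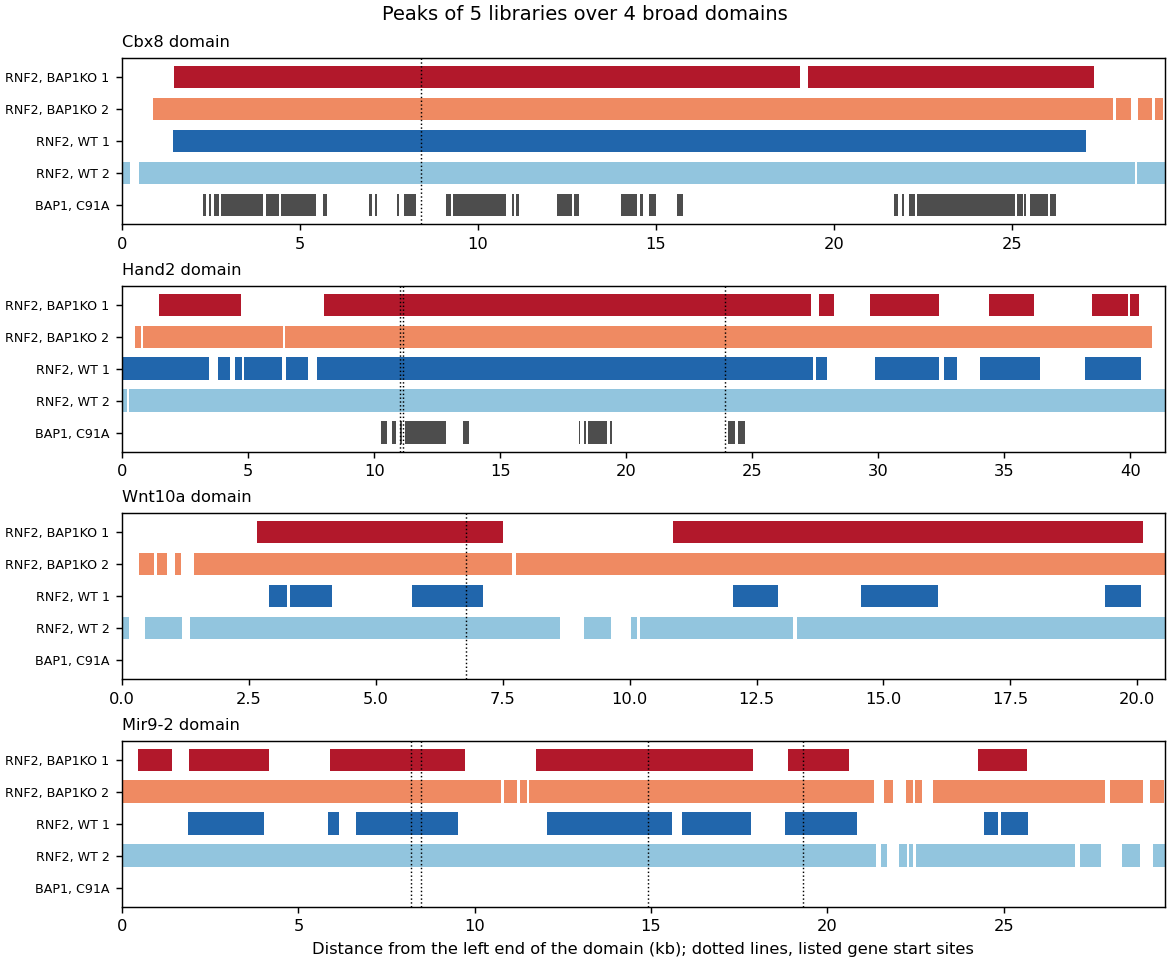
Peaks of RNF2 in BAP1KO libraries 1 and 2 and WT libraries 1 and 2, and of BAP1 in C91A cells, over the Cbx8, Hand2, Wnt10a and Mir9-2 domains; the x axis is distance from the left end of the domain in kb, bars are peaks and dotted lines are listed start sites. BAP1 peaks fill parts of the Cbx8 and Hand2 domains and are absent at Wnt10a and Mir9-2, and at Wnt10a WT library 1 covers 5.70 kb of the 20.5 kb, against 14.1 kb in BAP1KO library 1.

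The domains with and without BAP1 peaks also differed in the comparison of the libraries numbered 1. In the 339 with a BAP1 peak, RNF2 peaks covered 74.3% of the length in BAP1KO library 1 and 67.1% in WT library 1, a difference of 7.22 points. In the 410 without one they covered 59.6% in BAP1KO library 1 and 34.8% in WT library 1, a difference of 24.9 points. The order was the same within each class of span. At 5 to 7.5 kb the difference was 14.5 points with a BAP1 peak and 27.9 points without, and at 10 to 20 kb 7.86 points with and 19.8 points without. At 20 kb or more only 5 domains had no BAP1 peak, and the difference was 4.08 points with one and 14.6 points without. In WT library 1 the domains without a BAP1 peak started from lower coverage in each of these classes, and the part of that lower start was not tested.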

How the data were processed

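Reads were mapped to GRCm38 (mm10) with GSNAP, and MACS2 called the peaks, per the submitters' processing notes, which give no version for GSNAP. Per the file headers, MACS2 called each ChIP library against its own input at a q-value cutoff of 0.05, with version 2.1.0.20150420 for the RNF2 libraries numbered 1 and both BAP1 libraries and 2.1.1.20160309 for the others. The fragment length was 323 and 297 bp in BAP1KO and WT library 1, 100 bp in both libraries numbered 2 and the RNF2 knockout, 50 bp in C91A and 147 bp in the BAP1 knockout control. The authors' lists give for each peak its start, end and length, a fold enrichment (a ratio over local background), the pileup signal at the summit, and the p-value and q-value as −log10. Fold enrichment was used only within a list and pileup signal was not used. The unnumbered library of each RNF2 genotype was taken as library 1. Inputs entered only through the authors' calls.

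Covered length, spans and overlaps (at least 1 bp) were computed from these positions with Python 3.11.15, pandas 2.3.3 and numpy 2.4.6, and the interval code was tested on simulated intervals. Genes, start sites and miRNAs came from RefSeq tables of GRCm38.p6, without 108 coding entries that start before 3 Mb (except on Y). Start sites on chromosome 18 were not used here. Shares carry Wilson 95% intervals from scipy 1.17.1, for counting error only. An exact permutation test of summed coverage was planned and is not reported, because WT library 2 chose the domains and cannot serve as a replicate of their coverage. The replicate numbers come from the titles, and nothing says that a number marks a shared culture or day. Domains named are the 15 longest, the 3 on each side of 5 kb, the 5 with the largest gain and loss in BAP1KO library 1, the 5 strongest without a peak in WT library 1, the 10 with most BAP1 length, the 5 longest without BAP1 or without a coding gene, and up to 4 per gene list, with any listed PRC1, pluripotency or cyclin-dependent kinase inhibitor gene. Some domains that this rule names are not reported here. The members and the 25 gene lists were chosen with earlier results of these data known. Alternatives changed the merge gap, minimum span, q-value, list length, overlap, defining library and libraries used.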

Additional observations from a re-analysis of the deposited data

How the results depend on the processing

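Of 65 alternative values for 7 results, 4 left out one library of the coverage difference, and 2 of these changed its sign (−14.1 without WT library 1 and −5.84 without BAP1KO library 2). Of the other 61, 38 stayed within 1.5 times the count, within the main value's 95% interval or on the same side of 0, 23 moved further and 0 changed sign. Some of the 38 could not move. These include the difference taken in blocks of replicate number. With RNF2 lists held to 4038 peaks they also include the shares for WT library 1, whose whole list this is, and for BAP1, whose list was not cut. With a minimum span of 10 kb there were 263 domains, of which 100% had a peak in BAP1KO library 1, 99.2% in WT library 1 and 79.8% a BAP1 C91A peak; 83.3% were covered more in BAP1KO library 1 than in WT library 1, and 32.3% had a longer region in BAP1KO library 2. With RNF2 lists held to 4038 peaks, 83.2% were covered more in BAP1KO library 1 and 93.9% had a peak there. With domains drawn from BAP1KO library 2 instead, 96.8% had a peak in BAP1KO library 1, 76.8% in WT library 1 and 32.3% a BAP1 peak, and 68.1% were longer in BAP1KO library 2. The last value turns with the library that chose the domains. Requiring 10% overlap gave 96.8% in BAP1KO library 1, 89.6% in WT library 1 and 12.6% for BAP1. At −log10 q of 5 or more BAP1 peaks met 23.6% of domains, and at 10 or more 2.07%, with 91.2% for WT library 1. A gap of 2 kb gave 89.8% for WT library 1, 40.3% for BAP1 and 50.9% longer in BAP1KO library 2; a gap of 0.5 kb gave 99.3% for BAP1KO library 1 and 95.4% for WT library 1. The cause of these moves was not tested. Leaving out the domain under a BAP1 knockout control peak, chosen after seeing the data, moved none.

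The coverage difference of BAP1KO minus WT ranged from −14.1 to 24.8 percentage points with one library left out. Taken within replicate number as a block, it is 5.33 points by arithmetic, because each number holds a BAP1KO library and a WT library. This block value could not move and is no check of stability. It carries no test, because WT library 2 chose the domains. The 2 numbers are too few to check whether they pair the libraries. Peak calls, not reads, limit all values: a base outside a peak may still be bound below the threshold, more so in the libraries of 54.1 and 58.4 M tags than in those of 139 and 149 M.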

Other observations

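The same rule was applied to every RNF2 list. Regions of 5 kb or more numbered 397 in BAP1KO library 1, 1082 in BAP1KO library 2, 272 in WT library 1 and 749 in WT library 2. A domain of WT library 2 was overlapped by 389 of those in BAP1KO library 1, 689 of those in BAP1KO library 2 and 271 of those in WT library 1. BAP1KO library 2 thus listed 393 broad regions that overlapped none of the 749 domains, and 388 of them held some peak of WT library 2. Their median span was 5909 bp in BAP1KO library 2, and the longest merged region of WT library 2 in them had a median of 3003 bp. Choosing regions by width in BAP1KO library 2 makes them wide there, as it did for WT library 2 above. In the libraries that took no part in this choice, 362 (92.1%) held a peak in BAP1KO library 1 and 180 (45.8%) in WT library 1, against 37.9 and 17.2% of all merged regions of WT library 2. In domains of 5 to 7.5 kb, nearer in length, these shares were 97.8% in BAP1KO library 1 and 88.9% in WT library 1. Of the 393, 361 were covered more in BAP1KO library 1, as were 94.6% of domains of 5 to 7.5 kb and 37% of all merged regions. A BAP1 C91A peak lay in 15 of the 393 (3.82%), against 3.68% of all merged regions, most of which are under 5 kb. In domains of 5 to 7.5 kb, nearer in length to these 393, the share was 20.8%. The longest lay over Chpf, Tmem198 and Obsl1 (20619 bp), over Jak3, Insl3 and B3gnt3 (16864 bp), and over Sptbn4 (15375 bp), Plec (14677 bp) and Ltbp4 (14387 bp).

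The strongest peaks of each list, ranked by the authors' fold enrichment, lay in domains more often than peaks at large. Of the 1000 highest, 58.9 and 28.3% were in a domain in BAP1KO libraries 1 and 2, 67.2 and 40.8% in WT libraries 1 and 2, and 76.4% in the C91A list. Over all peaks the shares were 16.9 and 5.10% in the BAP1KO libraries, 36.4 and 9.75% in the WT libraries, and 72.9% in the C91A list, where rank made little difference. The peaks of WT library 2 made the domains, so its shares are a description only. The 1000 highest are a larger part of a short list (4038 peaks in WT library 1) than of a long one (39872 in BAP1KO library 2). Fold enrichment also has ties, with 4599 distinct values in BAP1KO library 2 and 478 among the 2395 C91A peaks.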
